A study of Rattus norvegicus with 12 samples.

Results

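PAC1 is a line of smooth muscle cells from the rat pulmonary artery, and the data described here are the poly(A) transcriptome of these cells after transfection with a control siRNA alone. The control libraries make up 3 of the 12 libraries of a study that depleted RNA-binding proteins in the same line. All 3 came from cells grown in DMEM with Glutamax and 10% foetal bovine serum, split weekly at a dilution of 1:10 to favour the differentiated state, and reverse transfected with 90 pmol of control siRNA in lipofectamine RNAiMAX. A repeat transfection followed at 24 h and the cells were taken 48 h after it, per the labels. Other intervals are given in the methods of the study, and which were used was not resolved. No gene was targeted, so the control cells carry the transfection itself but no depletion. The libraries stand for 1 immortal cell line, and the study's methods describe the replicates of each condition as biological replicates, although the labels do not say how each culture was set up. The study describes the control cells of this experiment as less differentiated than those of the other RNA-seq experiment it reports. The control siRNA, named C2, is shown because every library here received it.
C2, sense strand: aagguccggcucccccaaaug

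Vascular smooth muscle cells keep the ability to move between a contractile state and a proliferative, matrix-producing state. The contractile genes are switched on by serum response factor (SRF) and its coactivator myocardin, which act through the CArG box, a short promoter element, and genes such as those for smooth muscle myosin and calponin are known as late markers of the contractile state. In the artery these cells set vessel tone through receptors for vasoactive ligands, calcium and potassium channels and the myosin phosphorylation cycle, and they lay down the elastin and collagen of the wall.

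The deposited counts per gene were scaled to CPM, the counts of a gene per 1000000 counts of its library, and a value with ± is the mean and SD of 3 libraries. A gene was taken as present at 1 CPM or more in each library, as being at the floor with 3 counts or fewer in each library, and as being at trace level otherwise. By these definitions 12593 of 33294 gene symbols (37.8%) were present, 8595 were at trace level and 12106 were at the floor, of which 8944 had no count at all. Among symbols that RefSeq lists as protein coding, 11242 of 18446 (60.9%) were present. This share is the background for each count of list members given below. The genes present spanned 4.12 orders of magnitude, with a median of 31.9 CPM, and 74 of them lay at 1000 CPM or more. With 124 to 152 M counts per library, 3 counts equal 0.0198 to 0.0243 CPM, so a gene at the floor was not detectable above that level, which covers counting error only.

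The 3 libraries were close to each other, with a common biological coefficient of variation of 4.45% and a median CV of 2.90% over the 10674 genes at a mean of 5 CPM or more. Library 3 stood somewhat apart. No gene of these 10674 differed by more than 1.5-fold between libraries 1 and 2, against 12 between libraries 1 and 3 and 28 between libraries 2 and 3. Leaving out any library in turn left 12643 to 12667 genes present, and left 403 to 405 in place of 402 of the 684 listed genes that the table holds.

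The 10 genes with the most counts were COX1, Fn1, Col3a1, Col1a1, Actb, Vim, Flna, Col1a2, Spp1 and Eef2. COX1, the mitochondrial gene of a cytochrome oxidase subunit, gave 14081, 13441 and 13757 CPM in libraries 1 to 3. Fibronectin, the adhesive glycoprotein encoded by Fn1, gave 10303, 10486 and 11400.1 CPM. The list is otherwise made of 3 fibrillar collagen chains, the cytoplasmic actin, the intermediate filament vimentin, the actin cross-linker filamin A, osteopontin and a translation elongation factor. Together these 10 genes held 6.73 to 7.04% of all counts. Counts grow with transcript length, which was not used here, so wherever CPM values of different genes stand side by side they order counts and not molecules, and shares within families are likewise shares of counts.

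Genes of each part of the contractile apparatus were present, but the late markers Myh11 and Cnn1 had few counts. Of 60 genes in 4 contractile lists, 55 were present (91.7%, beside 60.9% of protein-coding symbols), 5 were at trace level and none was at the floor. The thin filament list was present in full, with 13 of 13 genes. Smooth muscle alpha-actin, Acta2, the actin of the contractile filaments, gave 978, 956 and 987 CPM. Transgelin, Tagln, an actin-binding protein that appears early in the smooth muscle lineage, gave 699.5, 671 and 657 CPM. Neither gene had a library that stood apart. The tropomyosins Tpm2 and Tpm1 stood at 857 ± 24.2 CPM and 727 ± 18.3 CPM, caldesmon (Cald1) at 603 ± 29.4 CPM, smoothelin (Smtn) at 123 ± 3.04 CPM and leiomodin 1 (Lmod1) at 49.4 ± 2.5 CPM.

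Other thin filament genes were present near the lower end of the range. Enteric gamma-actin, Actg2, gave 18.2, 15.4 and 15.5 CPM. Calponin 1, Cnn1, a late marker that binds actin and restrains the myosin ATPase, gave 6.57, 6.00 and 6.42 CPM, and Smtnl2 stood at 1.67 ± 0.0711 CPM. The 3 annotated promoter windows below are shown because Acta2, Actg2 and Cnn1 are smooth muscle genes whose mean counts in these cells ran from 973 to 6.33 CPM. They are RefSeq sequences of the assembly GRCr8, which is newer than the authors' mRatBN7.2, and run 5′ to 3′ on the gene's strand from 250 bases before to 50 bases after the annotated start; capitals mark a CArG box with at most 1 mismatch in its A/T core.
Acta2, chr1:241172454-241172753, minus strand: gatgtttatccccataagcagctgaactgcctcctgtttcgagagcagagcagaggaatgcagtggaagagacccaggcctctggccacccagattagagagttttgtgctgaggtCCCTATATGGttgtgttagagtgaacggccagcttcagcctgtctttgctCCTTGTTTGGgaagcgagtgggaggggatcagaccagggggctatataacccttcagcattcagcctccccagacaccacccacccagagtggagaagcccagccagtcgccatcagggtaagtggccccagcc
Actg2, chr4:117593990-117594289, minus strand: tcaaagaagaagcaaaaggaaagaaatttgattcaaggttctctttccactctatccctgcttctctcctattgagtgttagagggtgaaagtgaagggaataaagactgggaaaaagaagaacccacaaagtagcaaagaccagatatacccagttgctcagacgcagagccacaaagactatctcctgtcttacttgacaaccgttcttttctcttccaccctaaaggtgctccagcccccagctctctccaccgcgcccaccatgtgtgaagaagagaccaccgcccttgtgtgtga
Cnn1, chr8:28908187-28908486, plus strand: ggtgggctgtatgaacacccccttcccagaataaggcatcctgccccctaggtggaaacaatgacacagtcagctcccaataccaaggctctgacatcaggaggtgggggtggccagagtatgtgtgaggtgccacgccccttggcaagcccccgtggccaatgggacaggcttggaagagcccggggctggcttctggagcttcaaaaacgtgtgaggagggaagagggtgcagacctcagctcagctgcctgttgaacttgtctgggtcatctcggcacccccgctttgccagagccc

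The CArG box was searched as its consensus of 10 bases, whose pattern is the same on both strands. A perfect box occurs in 1.64% of the 33469 promoters in the table, and a box with at most 1 core mismatch in 9.42%. The Acta2 window held 2 of the latter, starting 134 and 84 bases before the start, and no perfect one, while neither kind was found in the windows of Actg2 and Cnn1. Of the 43 contractile genes with a promoter in the table, 4 held a box with at most 1 mismatch (9.30%), and the perfect box of Ldb3, the gene of a Z-disc and dense body protein, was the only perfect one. These windows are short, so boxes farther from the start or in introns would not be seen. In the Actg2 window an ATG that opens a reading frame follows closely after the annotated start. Whether that start is the 5′ end of the gene was not tested, so the absence of a box holds for the annotated window only.

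**Figure D1:**
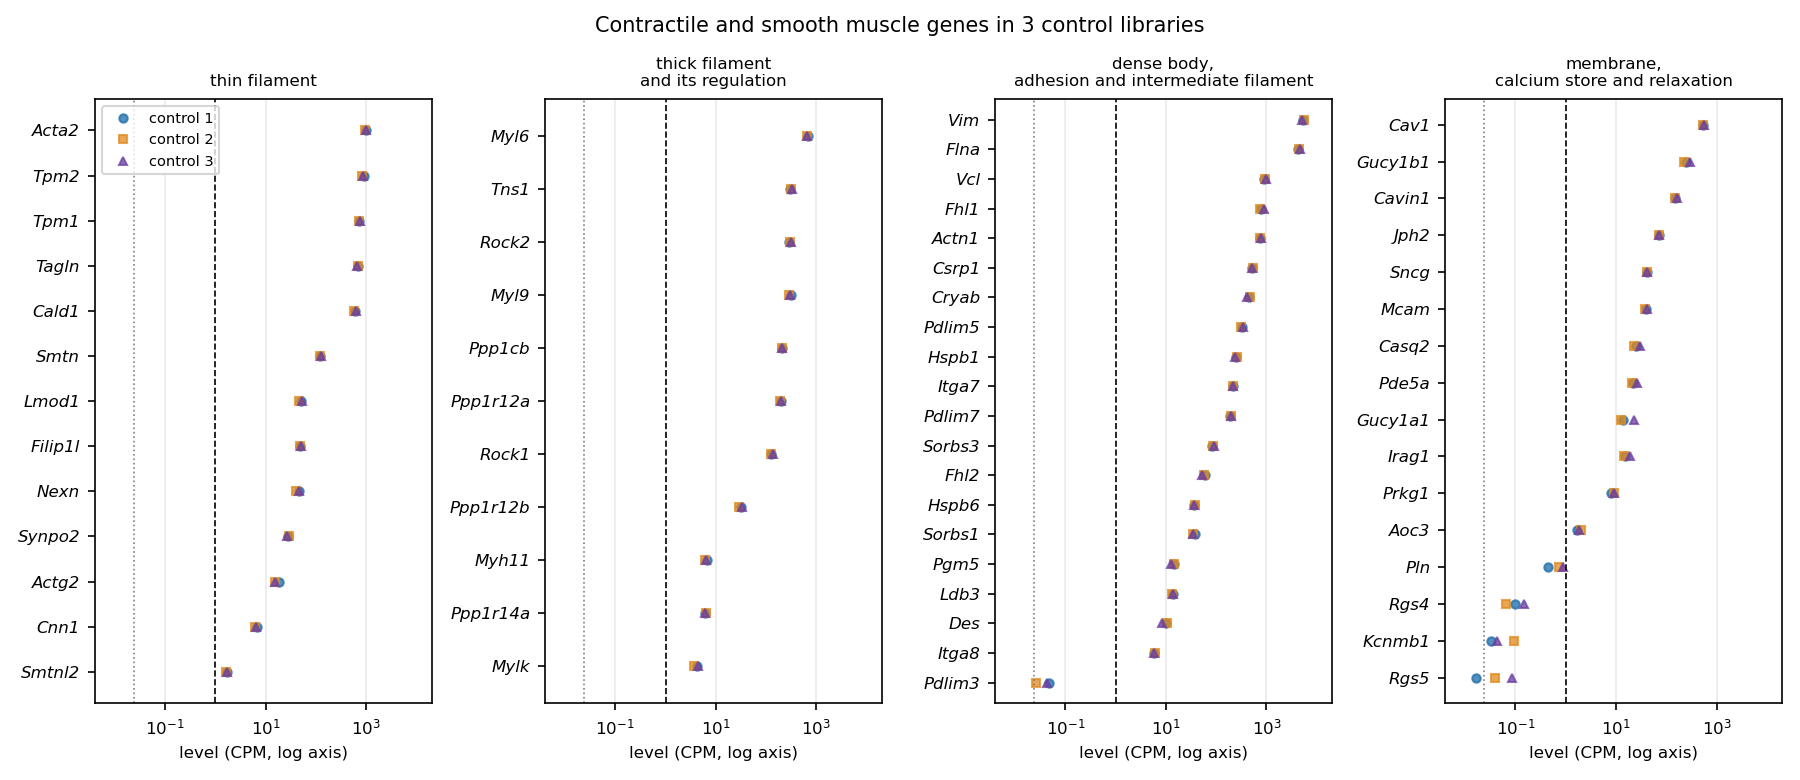
Levels of the 60 contractile genes in each of the 3 control libraries (CPM, log axis), in 4 lists ordered by mean; the dashed line is 1 CPM and the dotted line the highest value of 3 counts in a library. Points of the 3 libraries lie close together, and Myh11, Cnn1, Mylk and Itga8 have means of 4.11 to 6.37 CPM while Acta2, Tpm2, Tpm1 and Tagln have means of 676 to 973 CPM.

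The thick filament list was also present in full, with 11 of 11 genes, and Myh11, Mylk and Ppp1r14a were low. Smooth muscle myosin heavy chain, Myh11, the defining late marker, gave 6.64, 6.23 and 6.25 CPM, which is far above the floor in each library. Smooth muscle myosin light chain kinase, Mylk, which starts contraction by phosphorylating the regulatory light chain, gave 4.18, 3.67 and 4.47 CPM, and Ppp1r14a, whose product CPI-17 inhibits myosin phosphatase, gave 6.21, 6.37 and 6.15 CPM. By contrast the regulatory light chain Myl9 stood at 298 ± 11.3 CPM and the essential light chain Myl6 at 656 ± 10.6 CPM. The study names Myl9 among its contractile markers. Parts of the phosphatase and of its control were present as well, among them Ppp1cb at 205 ± 2.58 CPM, Ppp1r12a at 196 ± 4.76 CPM, Rock1 at 129.6 ± 4.23 CPM and Rock2 at 301 ± 11.4 CPM.

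Among the class II myosin heavy chains, the actins and the calponins, the counts fell mainly to non-muscle members. The non-muscle myosin Myh9 held 89.1 ± 0.154% of the counts of the class II myosin heavy chains listed, Myh10 held 10.4 ± 0.156% and Myh11 only 0.217 ± 0.0198%. In counts, Myh9 exceeded Myh11 by 375 to 449 times. Among 6 actins, beta-actin held 78.9 ± 0.350% and Acta2 11.8 ± 0.217%; the cardiac actin Actc1 had no count in any library. The calponin counts were divided between Cnn2 (52.4 ± 0.498%) and Cnn3 (46.9 ± 0.471%), with 0.769 ± 0.0391% for Cnn1. The tropomyosin counts were spread over all 4 genes, from 19.9 ± 0.193% for Tpm3 to 33.6 ± 0.358% for Tpm4, the cytoskeletal form. Tagln2 (55.5 ± 0.505%) and Tagln (44.5 ± 0.504%) took nearly all transgelin counts. Mylk3, known as the cardiac light chain kinase, held 62.1 ± 0.709% of the light chain kinase counts against 36.5 ± 0.691% for Mylk, at levels of 6.98 ± 0.507 CPM and 4.11 ± 0.404 CPM. Reads that match several paralogues may have been dropped or split, and how they were handled is not stated, so the shares of near-identical genes such as the actins are uncertain.

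Dense body, adhesion and intermediate filament genes were present in 19 of 20 cases. Vimentin, the mesenchymal intermediate filament, gave 5299, 5472 and 5099 CPM, whereas desmin (Des), the muscle intermediate filament, gave 10.2, 10.6 and 8.49 CPM. Vimentin held 93.4 ± 0.166% of the counts of a family of 6 intermediate filament genes, with nestin (Nes) at 323 ± 4.97 CPM and synemin (Synm) at 40.2 ± 0.688 CPM. Vinculin (Vcl) stood at 943 ± 40.7 CPM, filamin A (Flna) at 4412 ± 190.1 CPM and alpha-actinin 1 (Actn1) at 763 ± 9.25 CPM. Integrin alpha-8 (Itga8), a marker of contractile smooth muscle, gave 5.93, 5.94 and 5.90 CPM, below which only Pdlim3 lay in this list, at 0.0393 ± 0.0115 CPM. Utrophin held 91.2 ± 0.268% of the combined counts of utrophin and dystrophin.

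The list for membrane, calcium store and relaxation was the least complete of the contractile lists, with 12 of 16 genes present and 4 at trace level. Caveolin 1 (Cav1), the coat protein of caveolae, stood at 536 ± 11.9 CPM and held 71.4 ± 0.317% of the caveolin counts, and the cavins Cavin1 and Cavin3 were at 153 ± 9.47 CPM and 139.6 ± 10.0 CPM. The muscle forms Cav3 and Cavin4 were also present, at 19.7 ± 1.44 CPM and 15.4 ± 0.433 CPM. Kcnmb1, the smooth muscle beta subunit of the large-conductance potassium channel, gave 0.0322, 0.0923 and 0.0432 CPM, and the pericyte and smooth muscle regulator Rgs5 gave 0.0161, 0.0396 and 0.0864 CPM. Phospholamban (Pln), the brake on the calcium pump of the store, gave 0.443, 0.739 and 0.872 CPM. The nitric oxide pathway was present from the cyclase on: Gucy1b1 gave 242, 227 and 300.3 CPM, Gucy1a1 gave 13.7, 12.6 and 23.2 CPM, Prkg1, the cyclic GMP-dependent kinase, stood at 8.71 ± 0.675 CPM and Pde5a, which degrades cyclic GMP, at 23.1 ± 2.77 CPM. None of the nitric oxide synthases was present. Both cyclase subunits were highest in library 3, and without it the 2 remaining values of Gucy1a1 lay between 12.6 and 13.7 CPM.

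The transcription factors of the contractile programme were present. All 8 genes of the SRF axis passed 1 CPM: Srf gave 95.8, 98.2 and 95.1 CPM, the actin-regulated coactivator Mrtfa gave 171, 176 and 175 CPM, and myocardin (Myocd), the coactivator restricted to heart and smooth muscle, gave 22.2, 20.4 and 22.7 CPM. Mrtfa held 76.2 ± 1.07% of the counts of the myocardin family, Mrtfb 14.3 ± 0.852% and Myocd 9.54 ± 0.550%. The ternary complex factors Elk1, Elk3 and Elk4, which compete with myocardin for SRF, stood at 33.7 ± 0.812 CPM, 81.6 ± 0.611 CPM and 59.4 ± 0.682 CPM.

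Among factors of the cardiovascular and smooth muscle list, 13 of 28 were present (46.4%, beside 60.9% of protein-coding symbols). Gata6, the GATA factor of vascular smooth muscle, stood at 86.5 ± 6.65 CPM and held 75.3 ± 1.86% of the GATA counts, with Gata3 at 19.1 ± 0.694 CPM and Gata4 at 8.10 ± 0.274 CPM. Hey2, a Notch target, gave 71.6, 62.5 and 81.7 CPM and held 98.3 ± 0.733% of the counts of its family, since Hey1 was at trace level and Heyl lower still. Mef2a, Mef2d and Mef2c, factors of muscle differentiation, stood at 229 ± 2.79 CPM, 103 ± 3.05 CPM and 80.3 ± 0.955 CPM. Foxf1, Hand2, Foxc1 and Foxc2, which pattern mesoderm, were present at 19.2 ± 0.671 CPM, 20.3 ± 0.616 CPM, 62.6 ± 2.18 CPM and 71.1 ± 5.07 CPM. Barx1, Tcf15, Gata5 and Meox2 were at the floor, and the cardiac factor Nkx2-5 stood at 0.101 ± 0.0122 CPM.

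Of 22 mesenchymal factors, 18 were present (81.8%, beside 60.9% of protein-coding symbols). Prrx1 stood at 225 ± 8.74 CPM, Osr1 at 143 ± 2.78 CPM, Tbx18, a factor of mural cells, at 86.2 ± 5.92 CPM, and Sox9, the chondrogenic factor, at 56.9 ± 1.39 CPM. Tcf21, Tbx5 and Tbx20 were at the floor, and Tbx4, a T-box factor of lung mesenchyme, gave 0.0322, 0.106 and 0.0144 CPM. The Hippo effector Yap1 held 76.7 ± 0.210% of the combined counts of Yap1 and Wwtr1, and its partner Tead1 65.3 ± 0.504% of the TEAD counts.

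Splicing regulators differed in how far 1 paralogue led. Rbfox2 held 99.9 ± 0.0261% of the RBFOX counts at 152 ± 3.94 CPM, with Rbfox1 and Rbfox3 at trace level. Mbnl1 held 72.0 ± 0.0803% of the muscleblind counts, against 24.1 ± 0.0941% for Mbnl2. Rbpms and Rbpms2 were level in counts, at 38.9, 38.3 and 42.8 CPM for Rbpms and 38.4, 36.8 and 36.4 CPM for Rbpms2, so Rbpms held 51.8 ± 2.01% and led in each library by at least 1.01 times. Citing earlier work, the study describes RBPMS as the main expressed member of this pair in PAC1 cells. Lengths were not used here, so these counts do not give the ratio of molecules. Qk, the gene of QKI, stood at 229.6 ± 6.75 CPM, and Ptbp1, a repressor of muscle exons, at 428 ± 6.94 CPM. Esrp2, known from epithelia, was present at 6.58 ± 0.644 CPM while Esrp1 had no count, and neither NOVA gene was present.

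Alongside the contractile genes, genes of the proliferative state were present throughout. All 12 proliferation genes were present, with Ccnd1, the cyclin of early G1, at 1227, 1299 and 1198 CPM, the proliferation antigen Mki67 at 407, 421 and 426 CPM and topoisomerase Top2a at 275 ± 1.90 CPM. The summed level of the 12 genes ran from 3049 to 3161 CPM. Cyclin D1 held 85.3 ± 0.439% of the D cyclin counts. Brakes of the cycle were present at the same time in 9 of 10 cases: Cdkn1a (p21) stood at 207 ± 8.14 CPM, Cdkn1b (p27) at 148 ± 0.991 CPM and the INK4 genes Cdkn2a and Cdkn2b at 68.9 ± 1.76 CPM and 65.2 ± 6.58 CPM, while Cdkn1c (p57) was at trace level.

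The list of synthetic or dedifferentiated smooth muscle markers was present in 15 of 17 genes (88.2%, beside 60.9% of protein-coding symbols). Osteopontin, Spp1, gave 3771, 3889 and 3332 CPM, Tpm4 stood at 1147 ± 18.1 CPM, S100a4 at 844 ± 11.8 CPM, Col8a1 at 515 ± 33.0 CPM, the lectin Lgals3 at 283 ± 27.3 CPM and the pluripotency-linked factor Klf4 at 105 ± 6.94 CPM. Other members were low. Mgp, the matrix inhibitor of calcification, gave 1.44, 2.06 and 1.64 CPM. Of the simple keratin pair, Krt8 gave 31.1, 28.8 and 30.4 CPM and Krt18 0.0322, 0.00660 and 0.0432 CPM. How reads shared with processed gene copies were counted is not stated. Gapdh, a glycolytic gene with many such copies, gave 156, 158 and 147 CPM, with Aldoa at 1361 ± 47.1 CPM and Pgk1 at 768 ± 13.1 CPM, and the part of shared reads in the values of Gapdh and Krt18 was not tested. Gapdh, Aldoa and Pgk1 are outside the gene lists and were chosen after their values were seen.

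Matrix genes were among those with the most counts. Of 122 listed matrix genes 92 were present (75.4%, beside 60.9% of protein-coding symbols), 25 were at trace level and 5 at the floor, and 54 lay at 100 CPM or more. The summed level of the whole list ran from 64233 to 69891 CPM. Fibrillar collagen alone summed to between 22853 and 25900 CPM: Col3a1 gave 8637, 8496 and 9912 CPM, Col1a1 gave 7207, 7164 and 8228 CPM and Col1a2 gave 3888, 3997 and 4460.1 CPM. All 3 chains were highest in library 3. Col3a1 held 37.8 ± 0.548% of the fibrillar counts and Col1a1 31.6 ± 0.211%. The regulators of fibril width Col5a2 and Col5a1 stood at 1847 ± 33.5 CPM and 1100.0 ± 61.5 CPM, whereas the cartilage collagen Col2a1 was at trace level, with 0.0730 ± 0.0588 CPM.

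Genes of the elastic fibre were present in 15 of 21 cases, and the median log2 difference of library 3 from the mean of the others was 0.14 over these 15. Elastin (Eln) gave 657, 572 and 1018 CPM, with library 3 above the other two. Fibrillin 1 (Fbn1), the microfibril scaffold, gave 550.4, 551 and 667 CPM and held nearly all fibrillin counts, since Fbn2 gave 0.00806, 0 and 0.0432 CPM. Fibulin 5 (Fbln5), which guides elastin to microfibrils, gave 218, 186 and 291 CPM. The lysyl oxidases, which cross-link elastin and collagen, were all present, from 81.5 ± 2.86 CPM for Loxl4 to 328 ± 2.86 CPM for Loxl2. Mfap4, Mfap5, Mfap2, Efemp1 and Fbln1 were at trace level.

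In the basement membrane, perlecan (Hspg2) stood at 1387 ± 133 CPM and laminin gamma-1 (Lamc1) at 799 ± 19.4 CPM, holding 95.6 ± 0.437% of the gamma chain counts. Laminin alpha-5 (Lama5) held 78.9 ± 0.381% of the alpha chain counts, followed by Lama3 and Lama4, while Lama2, the muscle alpha chain, gave 0.258, 0.237 and 0.288 CPM. The beta chains were level, with 50.5 ± 0.330% for Lamb2 and 48.6 ± 0.255% for Lamb1. Collagen IV counts came mostly from Col4a5 (37.3 ± 0.920%), Col4a2 (28.8 ± 0.771%) and Col4a1 (25.3 ± 0.608%).

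Among proteoglycans 2 genes stood out. Aggrecan (Acan), the large proteoglycan of cartilage, gave 2694, 2932 and 2601 CPM and held 86.2 ± 1.34% of the lectican counts against 13.8 ± 1.34% for versican (Vcan). Biglycan (Bgn) gave 2396, 2332 and 2700.4 CPM and held 95.4 ± 0.710% of the counts of small leucine-rich proteoglycans. Decorin (Dcn), its close relative, gave 2.35, 1.71 and 3.31 CPM, and lumican (Lum) gave 48.4, 37.7 and 73.0 CPM. Lumican, decorin and biglycan were all highest in library 3.

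Of the matricellular genes, Sparc stood at 2975 ± 71.4 CPM, Ccn2 (connective tissue growth factor) at 929 ± 73.7 CPM, thrombospondin 1 (Thbs1) at 765 ± 60.6 CPM, with 94.2 ± 0.339% of its family's counts, and periostin (Postn) at 325 ± 7.41 CPM. Tenascin C held 99.4 ± 0.279% of the tenascin counts. Among proteases and inhibitors, Timp2 stood at 1191 ± 59.0 CPM and held 90.7 ± 0.412% of the TIMP counts, and the membrane protease Mmp14 stood at 334 ± 6.11 CPM. Mmp8, Mmp10 and Mmp12 were at the floor, and Mmp9 and Mmp3 at trace level.

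**Figure D2:**
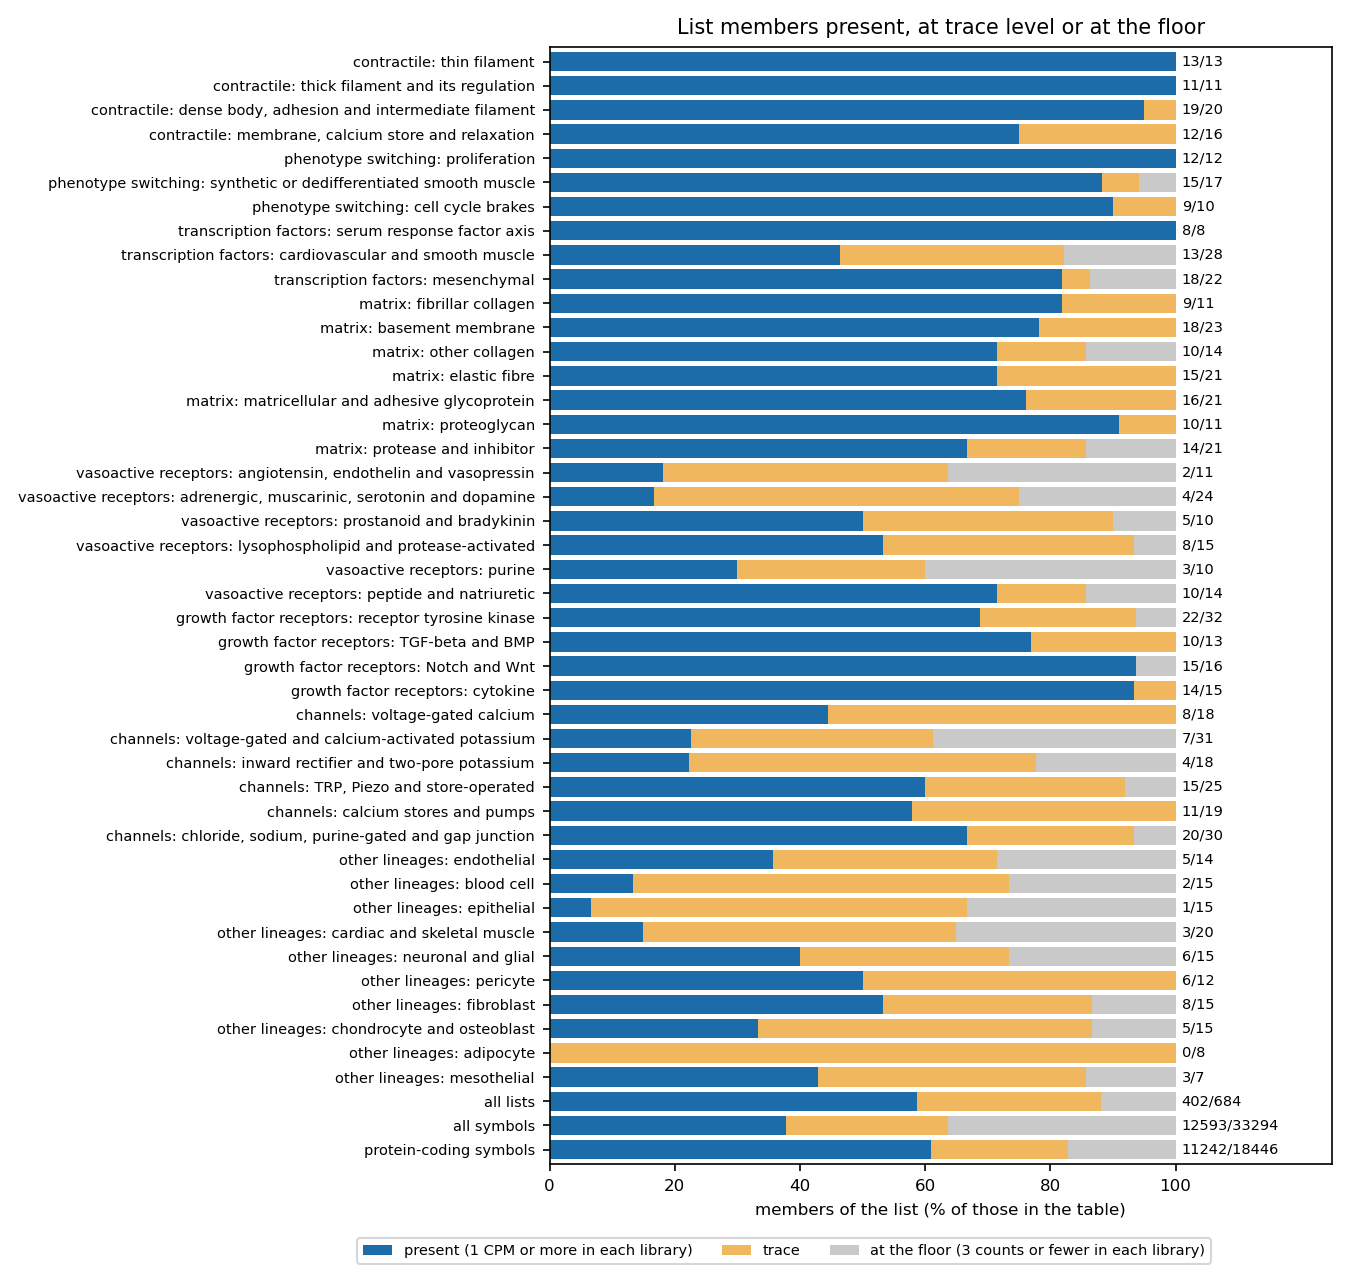
Share of the members of each gene list that were present, at trace level or at the floor in the 3 control libraries (% of the members in the count table), with the number present over the number in the table at the right; the last rows give all listed genes, all symbols and all protein-coding symbols. Thin filament, thick filament, proliferation and SRF axis lists are present in full, and no adipocyte gene is present.

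Most receptors for vasoactive ligands did not pass the threshold. Of 84 listed genes 32 were present (38.1%, beside 60.9% of protein-coding symbols), 34 were at trace level and 18 at the floor, and only F2r passed 100 CPM. The classical constrictor receptors were sparse. Endothelin receptor A (Ednra), which mediates the constriction of pulmonary arteries by endothelin, gave 33.6, 32.1 and 42.1 CPM, with 96.7 ± 1.11% of the counts of the pair. The angiotensin receptor Agtr1a gave 0.50, 0.224 and 0.778 CPM and stayed below 1 CPM in each library, while Agtr1b, Agtr2 and the vasopressin receptor Avpr1a were at the floor, Avpr1a with 2, 0 and 0 counts.

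Only 4 of 24 receptors for adrenergic, muscarinic, serotonin, dopamine and histamine ligands were present. The serotonin receptors Htr1b and Htr2a, both linked to constriction of pulmonary arteries, gave 62.9, 62.7 and 65.1 CPM and 19.1, 19.6 and 18.8 CPM. The alpha-1 adrenoceptor Adra1b gave 4.39, 4.43 and 4.41 CPM and held 99.5 ± 0.608% of the counts of its family. Adra1d, the alpha-1 subtype of large arteries, had 0, 4 and 0 counts. No muscarinic receptor was present, and Chrm3 stood at 0.0642 ± 0.0285 CPM.

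Receptors for lipids and proteases were present more often than these 24, but less often than the 60.9% of protein-coding symbols. The prostanoid and bradykinin list had 5 of 10 genes present, and the lysophospholipid and protease-activated list 8 of 15. The purine list had 3 of 10. Among the vasoactive lists the peptide and natriuretic list had the largest share present, with 10 of 14. The thrombin receptor F2r stood at 133 ± 3.60 CPM and held 88.7 ± 0.712% of the counts of its family. The prostaglandin E receptor Ptger1 gave 81.6, 84.9 and 85.3 CPM, with 91.9 ± 1.57% of the counts of that family, the prostacyclin receptor Ptgir stood at 7.75 ± 0.648 CPM and the thromboxane receptor Tbxa2r at 7.41 ± 0.218 CPM. The sphingosine phosphate receptors S1pr2 and S1pr3 stood at 59.3 ± 1.94 CPM and 28.2 ± 4.0 CPM, and the nucleotide receptors P2ry1 and P2ry2 at 32.6 ± 1.38 CPM and 21.9 ± 0.711 CPM. No adenosine receptor was present, although Adora2b, with 0.822, 1.23 and 1.04 CPM, lay next to the threshold. All 3 natriuretic peptide receptors were present, at 5.53 to 9.06 CPM.

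Growth factor receptors were present more often, with 61 of 76 genes (80.3%, beside 60.9% of protein-coding symbols). Axl, a receptor tyrosine kinase for Gas6, gave 598, 634 and 616 CPM and held 96.4 ± 0.128% of the counts of its family. Platelet-derived growth factor receptor beta (Pdgfrb), a mural cell receptor, gave 204, 201 and 241 CPM and held 97.7 ± 0.212% of the counts of the pair, against 5.17 ± 0.890 CPM for Pdgfra. Flt1, the VEGF receptor best known from endothelium, gave 62.9, 61.4 and 68.7 CPM although Kdr had 2, 2 and 0 counts. Fgfr1 (56.0 ± 1.33%) and Fgfr3 (34.5 ± 0.979%) shared most FGF receptor counts. The ligands Pdgfa and Tgfb1 stood at 104 ± 0.907 CPM and 229.7 ± 2.91 CPM, while Igf1 had 0, 1 and 0 counts.

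In the TGF-beta and BMP pathway, whose genes are linked to pulmonary hypertension, 10 of 13 receptor genes were present. Bmpr2 gave 120.4, 126 and 134 CPM, Tgfbr2 stood at 112 ± 5.22 CPM, Bmpr1a at 96.4 ± 2.87 CPM and endoglin (Eng), a coreceptor known from endothelium, at 355 ± 7.70 CPM. The endothelial type I receptor Acvrl1 was at trace level, with 0.0554 ± 0.0382 CPM, and Bmpr1b gave 0.193, 0.158 and 0.173 CPM. Among Notch receptors Notch2 held 53.8 ± 3.61% of the counts and Notch3, the receptor of arterial smooth muscle, 28.0 ± 4.45%, with 67.5, 59.6 and 95.8 CPM; the ligand Jag1 held 98.7 ± 0.118% of the Jagged and Delta counts. Of the Wnt receptors, Fzd10 alone was at the floor.

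Ion channel genes were present in 65 of 141 cases (46.1%, beside 60.9% of protein-coding symbols), and several potassium channels of contractile arterial muscle were at trace level or at the floor. Of 31 voltage-gated and calcium-activated potassium channel genes 7 were present. Kcnn4, the intermediate-conductance channel known from proliferating smooth muscle, gave 303, 320.2 and 301 CPM and held 99.2 ± 0.0908% of the counts of its family. The large-conductance channel Kcnma1, which normally restrains arterial tone, gave 0.0645, 0.0594 and 0.0720 CPM. Kcna5 (Kv1.5), a channel of pulmonary artery muscle that senses oxygen, had no count in any library, and Kcnk3 (TASK-1) gave 0.113, 0.106 and 0.0504 CPM. These values lie near the floor, so the order among them carries no weight.

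Other potassium channel genes were present at modest levels. Kcnh2 (hERG) stood at 42.3 ± 1.42 CPM, Kcnq5 at 20.6 ± 0.284 CPM, Kcnk2 (TREK-1) at 12.2 ± 1.40 CPM and the inward rectifier Kcnj2 at 3.19 ± 0.535 CPM. The subunits of the ATP-sensitive channel of vessels, Kcnj8 and Abcc9, were at trace level, at 0.0199 ± 0.0107 CPM and 0.0775 ± 0.0410 CPM.

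Voltage-gated calcium channels were represented by few pore genes. Cacna1c, the pore of the L-type channel that drives arterial constriction, gave 7.34, 6.55 and 8.15 CPM and held 96.5 ± 1.03% of the L-type counts. Of the T-type pores Cacna1i was present at 5.72 ± 0.657 CPM, and Cacna1g and Cacna1h, the forms usually named in smooth muscle, stood at 0.750 ± 0.0841 CPM and 0.0620 ± 0.0352 CPM. The accessory subunits Cacnb3 and Cacna2d4 stood at 84.2 ± 2.92 CPM and 50.7 ± 0.732 CPM.

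Stores, pumps and mechanosensitive channels were often led by a single gene. The calcium pump of the store, Atp2a2, gave 628, 644 and 643 CPM and held 99.8 ± 0.0168% of the SERCA counts. All 3 IP3 receptors were present, with Itpr3 (59.5 ± 1.41%) ahead of Itpr1 (35.8 ± 1.47%). Ryr1, the ryanodine receptor of skeletal muscle, stood at 9.92 ± 0.649 CPM, while Ryr2 and Ryr3 were at trace level. Piezo1, a channel opened by membrane stretch, gave 309.6, 328 and 328 CPM and held 89.4 ± 0.874% of the Piezo counts. Of the TRPC channels only Trpc1 was present, at 8.04 ± 0.185 CPM, with Trpc6 at 0.871, 0.752 and 1.01 CPM. Connexin 43 (Gja1) stood at 293 ± 6.81 CPM, and the calcium-activated chloride channel Ano1 at 69.3 ± 0.728 CPM.

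**Figure D3:**
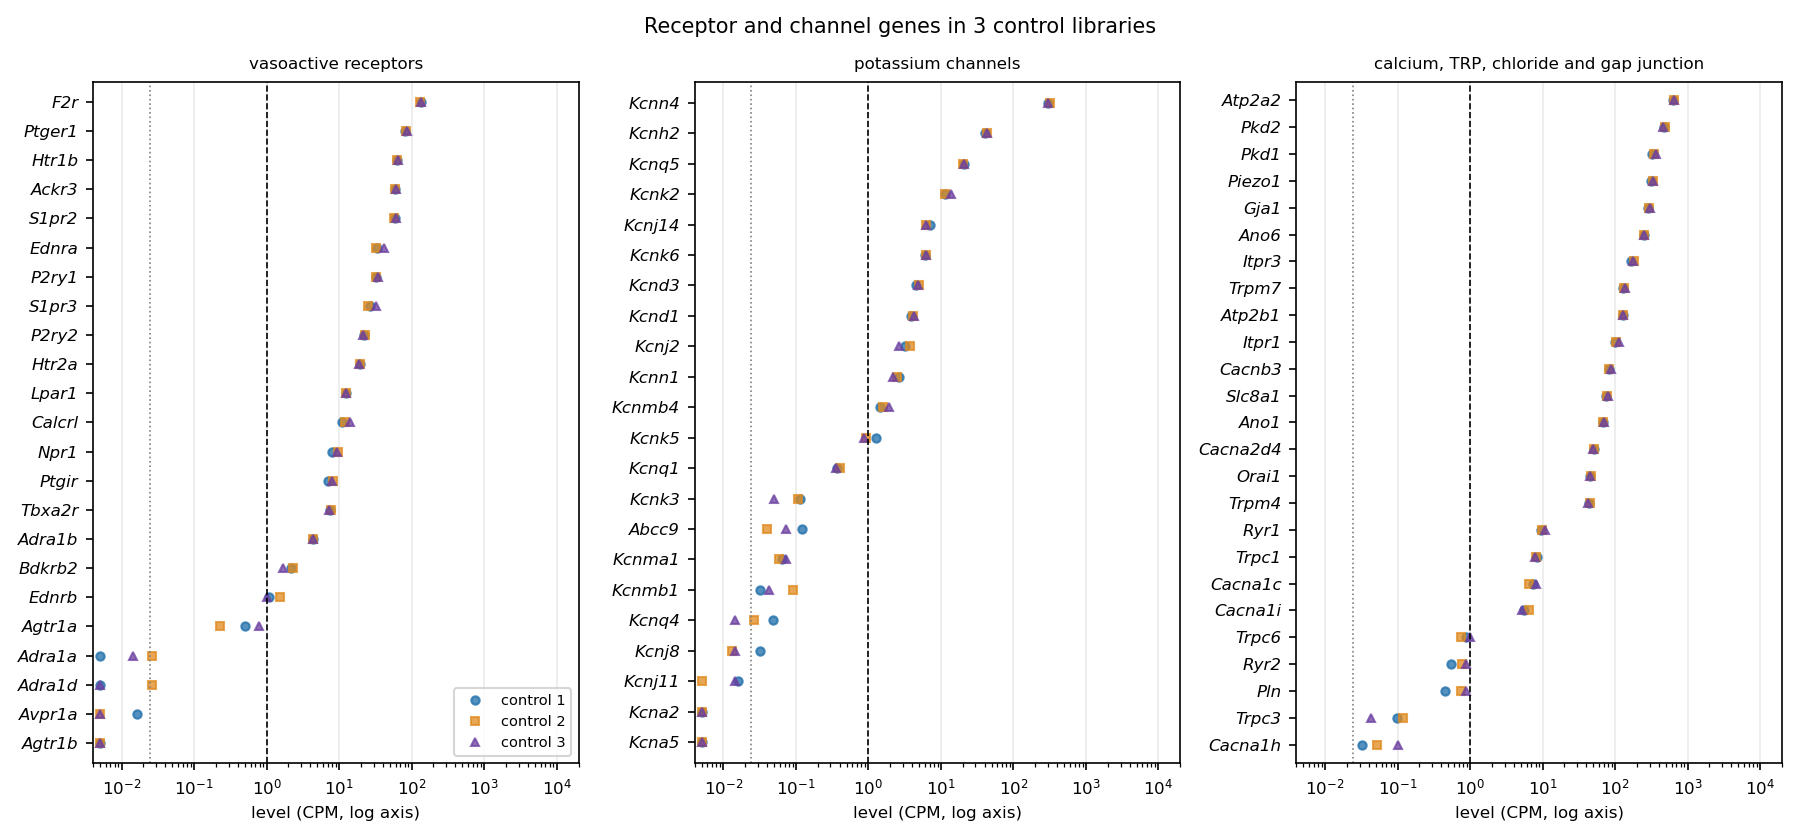
Levels of vasoactive receptor genes, potassium channel genes and calcium, TRP, chloride and gap junction genes in each of the 3 control libraries (CPM, log axis; genes picked for display from the lists, values of 0 drawn at the left edge); the dashed line is 1 CPM and the dotted line the highest value of 3 counts in a library. Kcnn4 has a mean of 308 CPM, while the means of Kcnma1, Kcnmb1 and Kcnk3 lie between 0.0559 and 0.0896 CPM.

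Markers of other lineages were mostly near the floor. Of 135 listed genes 39 were present (28.9%, beside 60.9% of protein-coding symbols), 68 were at trace level and 28 at the floor, and the median level was 0.0823 CPM. The defining markers of endothelium (Pecam1 at 0.0907 ± 0.0270 CPM), of leukocytes (Ptprc with 2, 0 and 0 counts) and of epithelium (Epcam at 0.0579 ± 0.0127 CPM) were near the floor. The 8 adipocyte genes were all at trace level. The defining factors of skeletal muscle, Myod1 and Myog, stood at 0.331 ± 0.128 CPM and 0.0161 ± 0.0279 CPM, and the cardiac myosin Myh6 was at the floor. Of the 20 striated muscle genes 3 were present, namely Acta1 at 8.61 ± 0.502 CPM, Tnni3 at 2.31 ± 0.357 CPM and Tnnt2 at 2.24 ± 0.256 CPM.

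Single genes of other lineages were nevertheless well above the threshold. Stathmin 2 (Stmn2), a microtubule regulator known from neurons, gave 111, 109 and 122 CPM, and the neuronal microtubule protein Map2 gave 51.0, 52.5 and 58.0 CPM. The synaptic markers Snap25 and Syp did not accompany them, at 0.0681 ± 0.0116 CPM for Syp and 0, 0 and 2 counts for Snap25. Mesothelin (Msln) gave 286, 281 and 279 CPM, with the mesothelial genes Upk1b and Upk3b at 12.7 ± 1.45 CPM and 9.68 ± 0.559 CPM but Wt1 at 0.0267 ± 0.00533 CPM. Of endothelial genes, Egfl7 stood at 19.3 ± 1.39 CPM, Cdh5 (VE-cadherin) at 6.35, 7.35 and 6.27 CPM and Esam at 6.38 ± 0.108 CPM. The monocyte receptor Cd14 stood at 36.4 ± 0.966 CPM and the epithelial factor Grhl2 at 10.7 ± 0.480 CPM.

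Mesenchymal neighbours of smooth muscle gave a mixed picture. Of 12 pericyte genes 6 were present, led by Cspg4 (NG2) at 379 ± 9.45 CPM and Pdgfrb, while Rgs5, Kcnj8, Abcc9 and Higd1b, which mark pericytes in tissue, were at trace level. Of 15 fibroblast genes 8 were present (53.3%, beside 60.9% of protein-coding symbols). Gelsolin (Gsn) stood at 601 ± 13.3 CPM, Col14a1 at 98.0 ± 22.0 CPM and Lum at 53.0 ± 18.1 CPM. Pdgfra, Scara5, Pi16, Thy1 and Dcn were at 2.46 to 5.17 CPM. Dpt, Tcf21, Cd34, Dpp4, Mfap5, Fbln1 and Clec3b did not pass 1 CPM in each library. Of 15 chondrocyte and osteoblast genes 5 were present (33.3%, beside 60.9% of protein-coding symbols), namely Acan, Sox9, Runx2, Sox5 and Col10a1. Acan and Sox9 had the most counts of these, while Col2a1, Comp and Matn1 did not reach 1 CPM. In a bulk library, few cells with much of an RNA and many cells with little of it cannot be told apart.

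Across 112 families of paralogues, 107 had a leading member that was present. The leader had at least 2 times the counts of the next member in each of the 3 libraries in 67 families, and at least 10 times in 31; the other 40 were shared. In 17 families a single member was present. The 12 of 15 channel families and 13 of 18 matrix families with a dominant member stood beside 10 of 24 receptor families. Leaders by at least 10 times were Rbfox2, Hey2, Fbn1, Tnc, Bgn, Lamc1, Thbs1, Timp2, Pdgfrb, Axl, Ednra, F2r, Kcnn4, Atp2a2, Slc8a1 and Jag1, among others. Families without a present member were the nitric oxide synthases, the NOVA proteins, the angiotensin receptors, the adenosine receptors and the IGF ligands.

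The threshold of 2 separated neighbours narrowly in a few families. Just inside it were the lysyl oxidases, where the lowest ratio of Loxl2 to Loxl1 in a library was 2.02, the fibulins, where that of Fbln2 to Efemp2 was 2.09, and the tensins, where that of Tns1 to Tns3 was 2.09. Just outside it were the SNAI factors, where the lowest ratio of Snai1 to Snai2 was 1.97, and the PRRX factors, where that of Prrx1 to Prrx2 was 1.87. Without library 3 the count of 67 became 70, since the SNAI factors, the Notch receptors and the sphingosine phosphate receptors then passed the threshold of 2, and without library 1 it became 68, since the adenosine receptors then had a present leader. The leader was the same without any library in turn in all 107 families, except that without library 2 Igfbp7 replaced Igfbp6 at the head of the IGF-binding proteins, which held 47.6 ± 2.91% and 49.4 ± 2.83% of the counts. Since lengths were not used, a lead of a few times could differ per molecule.

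**Figure D4:**
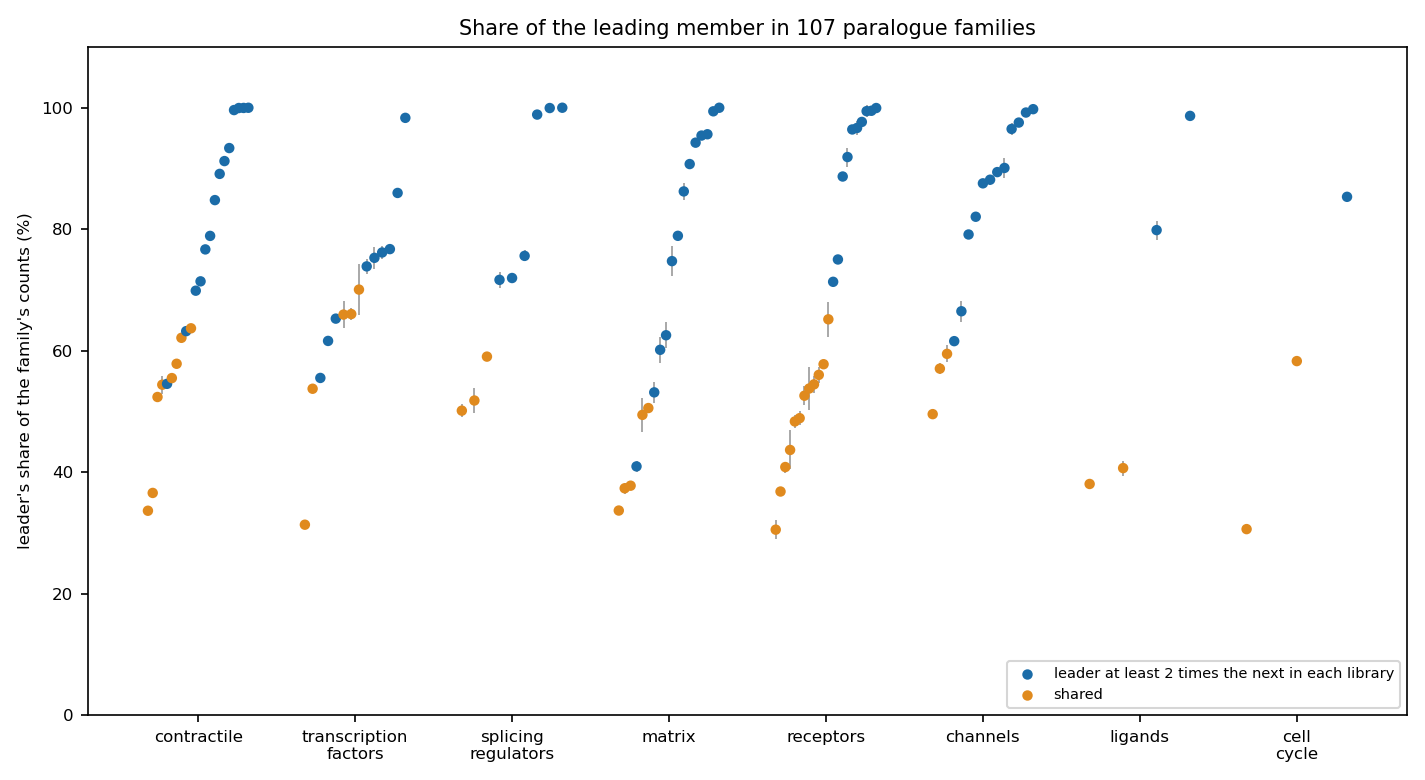
Share of a family's counts held by its leading member (%, mean and SD of 3 control libraries) in the 107 families with a leader that was present, sorted within 8 themes. Blue points are families where the leader had at least 2 times the counts of the next member in each library (67) and orange points the 40 shared families; the lowest share among the receptor families is 30.5%, that of Itga3 among the integrin alpha chains.

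Differences between the control libraries fell on a small set of genes. Of the 10674 genes at a mean of 5 CPM or more, 320 had a CV above 10% (3.00%) and 31 a CV above 20%, and library 3 was the library farthest from the others in 246 and 29 of them. Among the 10 genes of largest CV were Oasl, Gucy1a1, Lum, Kcne4, Eln, Akr1c14, Fosb, Ahrr and Cxcl10. Library 3 was highest in Gucy1a1, Lum, Kcne4, Eln and Akr1c14 and lowest in Oasl, Fosb, Ahrr and Cxcl10. On the log2 scale, library 3 differed from the mean of libraries 1 and 2 by 0.82 for Gucy1a1, 0.76 for Lum, 0.73 for Eln, -0.73 for Cxcl10 and -1.28 for Oasl, an interferon-induced gene.

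Without library 3 only 2 of these 10 genes remained among the 10 most variable, against 6 without library 2 and 10 without library 1. Of 82 matrix genes at 5 CPM or more, the median log2 difference of library 3 was 0.11, beside 0.034 over 52 contractile genes and -0.00086 over all 10674 genes. No test of such a difference was run, because library 3 has no replicate of its own beside which the others could be set.

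**Figure D5:**
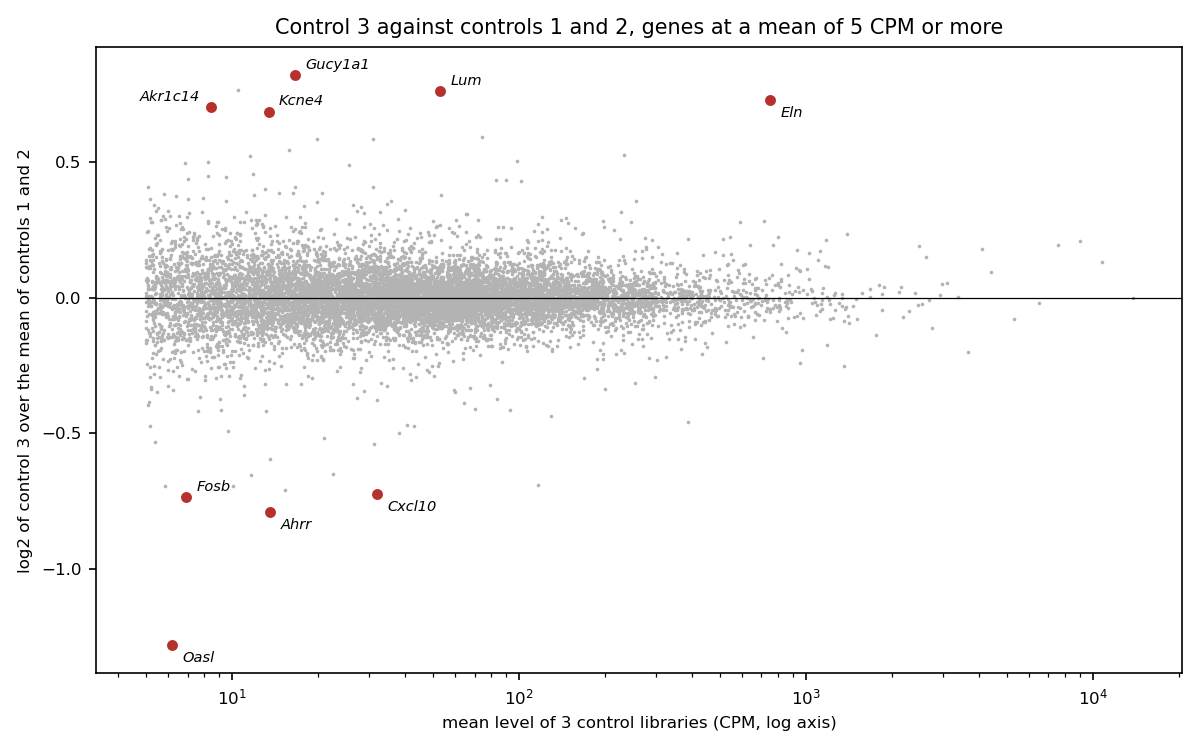
Log2 of the level in library 3 over the mean of libraries 1 and 2 against the mean level (CPM, log axis) for 10674 genes; genes named among the 10 of largest CV are marked in red. Most genes lie close to 0, with Gucy1a1, Lum, Kcne4, Eln and Akr1c14 above and Oasl, Ahrr, Fosb and Cxcl10 below.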

How the data were processed

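Poly(A) RNA of 3 control libraries was sequenced with a strand-specific kit, and the titles of the samples gave group and replicate. The authors deposited raw counts per gene for 33294 symbols and a quantile-normalised signal for fewer of them. Per the labels the tools were FastQC 0.11.2, MultiQC 1.8, STAR 2.5.2a, edgeR 3.28.1 and DESeq2 1.30.0 on the build mRatBN7.2, while the study's methods name a later STAR, featureCounts and noisyR. How multi-mapping and strand were handled in counting is not given in the sources used here, so paralogues, overlapping and antisense genes are uncertain. Low counts were even more often than odd (67.4 to 70.4% of values from 1 to 19), with 4500 values of 2 and 1594 of 1. The cause was not tested, nor whether 1 count stands for 1 sequenced molecule, and counting limits cover counting error only. The library totals exceed the reads per sample that the study's methods give, and the reason was not tested.

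The counts were scaled to CPM with TMM factors of edgeR 4.0.16 in R 4.3.3 over the 3 control libraries, and tabulated with Python 3.11.15 and pandas 2.3.3. The scripts were tested on simulated data. No test was run, since the control libraries form 1 group. Of the symbols, 81.0% matched RefSeq's table for GRCr8, a newer assembly that served for gene classes and promoters only. Of 689 listed symbols 684 were in the table. The plan compared paralogues per kilobase, but no transcript or protein lengths were used here, so shares of counts took their place and the 20 genes of highest level per kilobase are not named.

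Named genes are members of 43 lists and 112 families, the 10 genes of most counts and the 10 of largest CV at a mean of 5 CPM or more, without placeholder symbols; some members are not reported here. The lists, families and members were chosen with earlier results of these data known. The alternatives were a presence threshold of 0.5 or 2 CPM, library totals or RLE scaling, the authors' normalised signal, other limits of dominance, a filter on fewer than 10 counts, and leaving out each library.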

Additional observations from a re-analysis of the deposited data

How the results depend on the processing

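The number of genes present moved from 12593 to 13574 at 0.5 CPM and to 11722 at 2 CPM, and that of list members from 402 to 424 and 380. Contractile genes present stayed at 53 to 55, matrix genes at 86 to 94 and genes of other lineages at 33 to 42 over all alternatives. Library totals, RLE factors and a count filter moved no level of the 402 list members by more than 0.07%, and the authors' normalised signal gave 12711 genes and 406 list members present. A dominant member was found in 53 families at a limit of 3 times and in 83 at 1.5 times, against 67 at 2 times, in 67 with the normalised signal, in 31 at a limit of 10 times, which was chosen after seeing the data, and in 67 to 70 without each library in turn. Of the 10 most variable genes, 2 to 10 stayed among the 10 when a library was left out, the fewest without library 3. No paired analysis was possible because the results describe 1 group and come from no test. Depth limits only values near the floor, and the missing lengths limit every comparison between paralogues.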

Other observations

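Some abundant genes lie outside the lists and were chosen after their values were seen. Cyp1b1, a target of the aryl hydrocarbon receptor that metabolises oestrogens and xenobiotics, gave 1748, 1856 and 1639.8 CPM in libraries 1 to 3, and the receptor gene Ahr gave 60.5, 60.1 and 68.6 CPM. Cyp1a1, the target most often used to read the activity of this receptor, gave 0.242, 0.686 and 0.0864 CPM, and the repressor Ahrr gave 15.0, 16.7 and 9.14 CPM. Library 3 was lowest of the 3 for Cyp1b1, Cyp1a1 and Ahrr and highest for Ahr.

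Several genes whose products take part in folding or modifying collagen and other secreted proteins also had many counts. They were likewise picked after their values were seen, and no full list of such genes was examined. P4hb, a subunit of prolyl hydroxylase, stood at 1455 ± 20.4 CPM, the collagen chaperone Serpinh1 at 1267 ± 8.46 CPM, the lysyl hydroxylase Plod2 at 1021 ± 72.8 CPM and the chaperones Calr and Hspa5 at 1844 ± 57.4 CPM and 1359 ± 134 CPM. Among secreted proteins, Mfge8, whose fragment forms the medial amyloid of ageing arteries, gave 2258, 2366 and 2234 CPM, the serine protease Htra1 stood at 1402 ± 40.9 CPM, the follistatin-like protein Fstl1 at 1121 ± 81.7 CPM and the chemokine Cxcl12 at 713 ± 86.7 CPM. Cxcl12 was highest in library 3, with 691, 639.9 and 809 CPM, while Ackr3, an atypical receptor for it, stood at 59.8 ± 1.87 CPM.

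Hmox1 and Atf3, genes of the stress response that were likewise chosen after their values were seen, were lowest in library 3, with 127, 139.7 and 82.4 CPM for Hmox1 and 16.5, 18.7 and 10.8 CPM for Atf3. Telomerase (Tert) stood at 0.655 ± 0.167 CPM, below 1 CPM in each library.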
